A study of Mus musculus with 503 samples.

Results

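The ligands described here are 10 genes of the transforming growth factor-beta superfamily, followed across single perivascular cells of the mouse spinal cord and taken from 56701 gene rows in the count table. They comprise the activin subunit genes Inhba and Inhbb, the 3 TGF-beta genes Tgfb1, Tgfb2 and Tgfb3, and the BMP-type ligands Bmp4, Bmp5, Bmp6, Bmp7 and Gdf10. Gdf10 (BMP3B) is grouped as BMP-type by name, not by the Smads it acts through. The genes were chosen by symbol, with earlier results of these cells known, so every level and difference of a ligand is given as a description. All mice were adults of the genotype GLAST-CreERT2;R26R-tdTomato;Pdgfrb-eGFP on a C57BL/6J background and had received tamoxifen. The labels record every cell as from a female, and the study's methods give only females for crush lesions. Its reporting summary gives both sexes for sequencing experiments, and which holds for these cells was not settled. In these mice Cre is driven by the GLAST (Slc1a3) gene, so tdTomato marks cells in which that gene was active at recombination and their progeny, and EGFP marks cells in which the Pdgfrb reporter is on. tdTomato+EGFP+ and tdTomato-EGFP+ cells were sorted into plates from uninjured spinal cord or from the crushed segment 3 days after a complete crush at thoracic level 10, and each cell was sequenced with Smart-seq3, a full-length single-cell RNA protocol. The sample labels give 3 days for all injured cells, whereas the series' design text gives 5 days, and the labels are followed throughout.

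These ligands are secreted as dimers and bind paired type I and type II serine/threonine kinase receptors on the receiving cell. TGF-betas and activins act mainly through Smad2 and Smad3, whereas BMPs act mainly through Smad1, Smad5 and Smad9, with Smad4 shared by both branches. TGF-beta is stored in the extracellular matrix in a latent form and is widely known as an inducer of matrix production in fibroblasts. Activin A, the dimer of the Inhba product, is known from wound repair and fibrosis, and BMP4, BMP5, BMP6 and BMP7 are best known from patterning and vascular biology.

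All sorted cells were EGFP+, and tdTomato+EGFP+ and tdTomato-EGFP+ cells are called tdTomato+ and tdTomato- below. After filters on genes per cell, mitochondrial share and markers of other cells, 468 of 503 cells were kept. Without injury these were 65 and 72 tdTomato+EGFP+ cells and 46 and 60 tdTomato-EGFP+ cells (plates 209 and 213). At 3 days they were 88 and 34 tdTomato+EGFP+ cells and 58 and 45 tdTomato-EGFP+ cells (plates 211 and 215). Summed counts per group ranged from 25645409 to 38406035. No label names an animal, so each group is 1 sample, no test between groups was possible, and the values on each plate are given as a technical spread. No plate held cells of both conditions, and injury and plate therefore cannot be told apart. Plate 215 carried 34 shallow tdTomato+ cells with 5.39% of that group's counts. The labels were matched by Slc1a3, at 212 and 207 CPM in the tdTomato+ groups (uninjured and 3 days) against 31.5 and 10.7 CPM in the tdTomato- groups, and by Pdgfrb, at 1213 CPM or more in all 4 groups. Endothelial markers (Pecam1, Cldn5, Flt1, Kdr and Cdh5) were nevertheless present in cells sorted as perivascular, with a summed level of 3635 and 3947 CPM in the uninjured tdTomato+ and tdTomato- groups against 345 and 1423 CPM at 3 days. The 6 immune markers summed to 13.7 to 76.6 CPM and the 3 platelet markers to 2.83 to 10.2 CPM.

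Levels below are CPM, for which a gene's counts were added over all cells in a group and divided by the group's total in units of 1000000 counts, with an exact 95% Poisson interval where given. Intervals and limits from counts of 0 cover counting error only. A ligand is called past 2-fold when log2(CPM + 1) differed by 1 or more between the sums, with 1 direction on both plates (sorted populations) or in all 4 plate pairs (injury), at 10 CPM or more in the higher group. The share of all genes that met the same rule is given as the background.

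To show what lies directly upstream of the activin and TGF-beta genes past 2-fold in the injury contrasts below, the 250 bases before the start of Inhba, Tgfb1 and Tgfb2 are printed from RefSeq's promoter table for GRCm38.p6, which held 8 of the 10 ligand genes (all but Tgfb3 and Bmp7). Inhba lies on chr13:16011601-16011850 (plus strand), Tgfb1 on chr7:25686752-25687001 (plus strand) and Tgfb2 on chr1:186705990-186706239 (minus strand), each window read 5′ to 3′ on the strand of its gene. Capitals mark a TATAAA on the gene's strand or a GGGCGG (GC box) on either strand.
Inhba: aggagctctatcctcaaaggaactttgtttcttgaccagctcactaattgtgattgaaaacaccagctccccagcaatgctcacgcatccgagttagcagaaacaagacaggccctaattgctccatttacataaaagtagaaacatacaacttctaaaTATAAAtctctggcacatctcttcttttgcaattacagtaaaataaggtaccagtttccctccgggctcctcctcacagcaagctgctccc
Tgfb1: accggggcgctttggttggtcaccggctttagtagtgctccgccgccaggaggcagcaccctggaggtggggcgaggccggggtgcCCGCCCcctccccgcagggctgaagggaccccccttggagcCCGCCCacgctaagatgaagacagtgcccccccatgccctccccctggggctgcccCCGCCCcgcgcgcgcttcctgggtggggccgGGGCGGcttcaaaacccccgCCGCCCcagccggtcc
Tgfb2: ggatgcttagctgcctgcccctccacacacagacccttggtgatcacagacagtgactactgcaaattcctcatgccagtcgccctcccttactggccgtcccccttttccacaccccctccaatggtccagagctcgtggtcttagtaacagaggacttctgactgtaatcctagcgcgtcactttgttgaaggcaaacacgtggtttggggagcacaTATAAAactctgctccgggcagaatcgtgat
Inhba and Tgfb2 held 1 TATAAA each, starting 91 and 31 bases before the start, and Tgfb1 held none and 5 GC boxes. TATAAA was found in 2 of the 8 ligand windows and in 7.59% of 32851 windows of the same length, and GGGCGG in 5 of the 8 and in 32.7%. The Smad-binding letters CAGAC (either strand, no overlap with the other motifs marked) were found in 4 of the 8 and in 42.2% of windows, with 2 matches in Tgfb2 and none in Inhba or Tgfb1. The AP-1 letters TGANTCA were found in none of the 8 and in 6.75% of windows. These matches are descriptions of letters in these windows only.

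Activin subunits. Inhba, which encodes the beta-A subunit of activin A, was the ligand that differed most between groups. Its level was 414 CPM (407 to 421) in injured tdTomato+ cells, 38.6 CPM (36.3 to 41.1) in injured tdTomato- cells, 9.89 CPM (8.74 to 11.2) in uninjured tdTomato- cells and 1.59 CPM (1.21 to 2.04) in uninjured tdTomato+ cells. On single plates it was 398 and 688 CPM in injured tdTomato+ cells (plates 211 and 215), 37.4 and 39.8 CPM in injured tdTomato- cells, 21.7 and 4.33 CPM in uninjured tdTomato- cells (plates 209 and 213) and 3.30 and 0.358 CPM in uninjured tdTomato+ cells. Both plates of the injured tdTomato+ group were above every other plate, and the ranges of the 4 groups did not overlap. Inhba was thus 261-fold higher after injury in the tdTomato+ population (log2 difference 7.33, plate pairs 6.54 to 8.99) and 3.91-fold higher in the tdTomato- population (1.86, plate pairs 0.76 to 2.94). Between the sorted populations it was 10.7-fold higher in tdTomato+ cells at 3 days (3.39, plates 3.38 and 4.08), whereas in uninjured cord the tdTomato+ population had the lower level (-2.07, plates -2.40 and -1.97), below the 10 CPM limit.

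**Figure D1:**
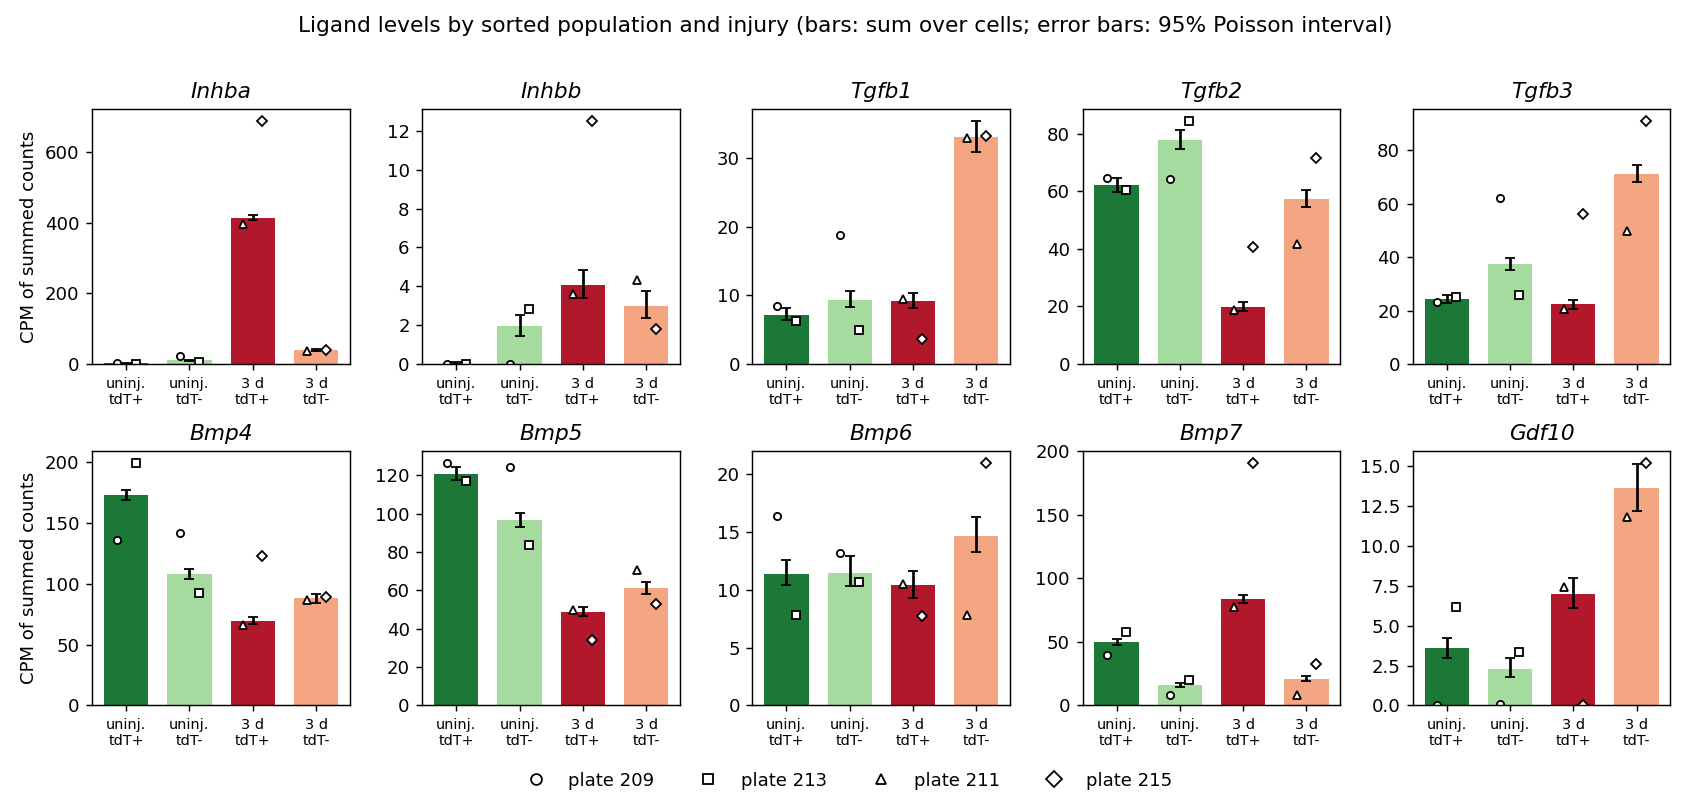
CPM of counts summed over cells (y axis, linear and separate for each gene) for the 10 ligands in the 4 groups, with 95% Poisson intervals as error bars and the value on each plate as an open symbol. Inhba stands at 414 CPM in injured tdTomato+ cells against 38.6 CPM or less in the other groups, and Tgfb1 at 33.1 CPM in injured tdTomato- cells against 9.37 CPM or less.

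The Inhba level was spread unevenly over cells. A count was found in 89 injured tdTomato+ cells (73%), 22 injured tdTomato- cells (21.4%) and 7 cells in each uninjured group. With every cell thinned to 20000 counts the shares were 68% (57.9 to 77, exact binomial 95% interval, n = 100 cells), 16.7% (10 to 25.3), 3.15% (0.865 to 7.87) and 4.35% (1.2 to 10.8, n = 92, the smallest group after thinning), in the order injured tdTomato+, injured tdTomato-, uninjured tdTomato+ and uninjured tdTomato-. The interval of the injured tdTomato+ group thus lay above those of the other 3 groups, and the intervals of the uninjured groups overlapped. Per cell, Inhba in injured tdTomato+ cells ran from 0 through a median of 128.8 CPM to a highest value of 10399.6 CPM, and the highest cell carried 24.8% of the group's Inhba counts. With the top cell of each group left out, the injury difference in tdTomato+ cells was 7.44 and the difference between populations at 3 days 3.39 on the log2 scale. In the uninjured groups 1 cell carried 49.2% (tdTomato+) and 51.9% (tdTomato-) of the Inhba counts, so those low levels rest on a few cells.

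Inhbb, which encodes the beta-B subunit, was near the limit of detection. It stood at 4.08 CPM (17 cells, 13.9%) in injured tdTomato+ cells, 3.00 CPM (7 cells, 6.80%) in injured tdTomato- cells and 1.93 CPM in uninjured tdTomato- cells, where all 52 counts came from 1 cell. In uninjured tdTomato+ cells it had 0 counts, which allows a level of up to 0.0781 CPM and a share of up to 2.19% of its cells. Against that limit, set at 3 counts over the group, Inhbb was 52.2-fold higher after injury in tdTomato+ cells. The limit covers counting error only. Since 1 cell held all 52 counts of the uninjured tdTomato- group, this fold is not a lower bound. No contrast of Inhbb reached 10 CPM.

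**Figure D2:**
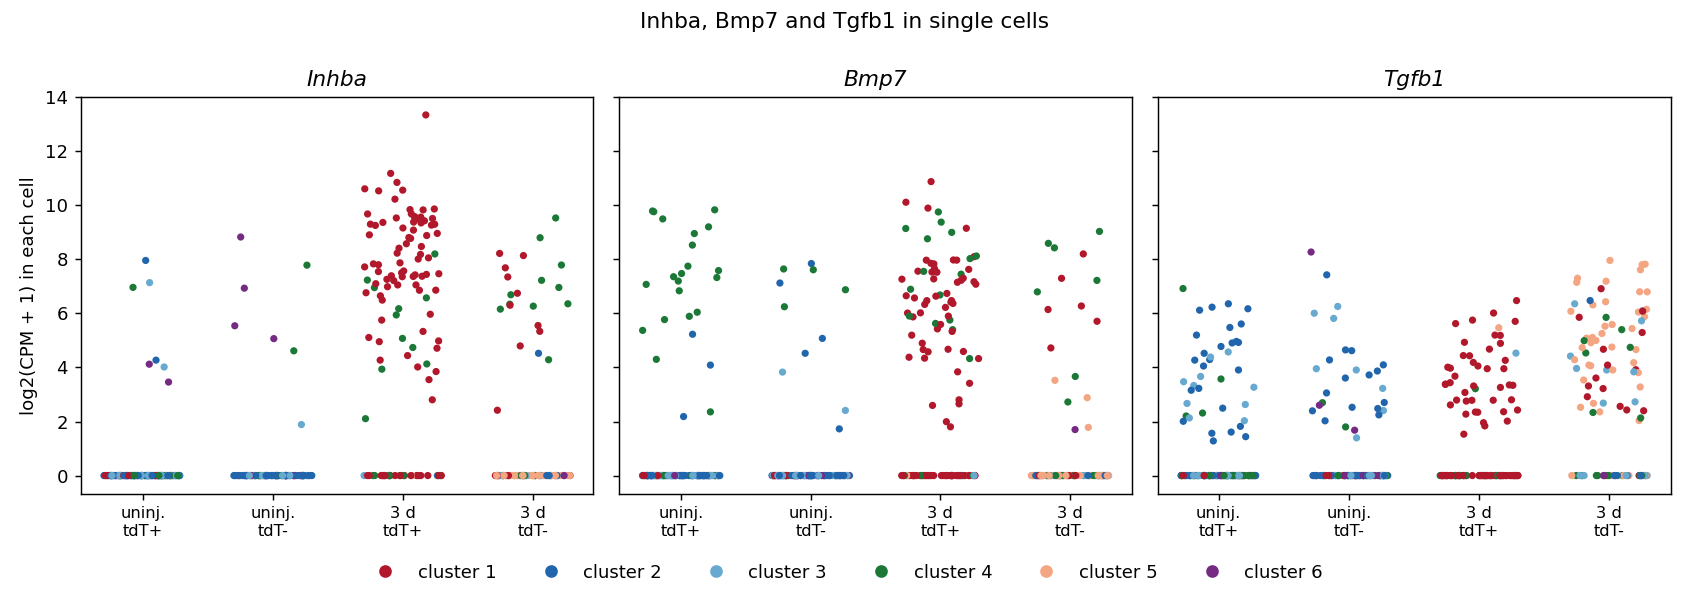
log2(CPM + 1) of Inhba, Bmp7 and Tgfb1 in each of the 468 kept cells (y axis), by group (x axis, with random horizontal spread) and coloured by cluster. Inhba counts in injured tdTomato+ cells come mostly from cluster 1, Bmp7 counts in uninjured tdTomato+ cells from cluster 4, and Tgfb1 counts in injured tdTomato- cells mostly from cluster 5.

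TGF-beta ligands. All 3 TGF-beta genes were lower in tdTomato+ than in tdTomato- cells at 3 days. Tgfb1, the isoform best known from fibrosis, was at 33.1 CPM (30.9 to 35.4) in injured tdTomato- cells, with 33 and 33.2 CPM on plates 211 and 215. It was at 9.19 CPM (8.15 to 10.3) in injured tdTomato+ cells, 9.37 CPM in uninjured tdTomato- cells and 7.21 CPM in uninjured tdTomato+ cells. The injured tdTomato- plates thus stood above all 6 others, which lay between 3.58 and 18.8 CPM. Tgfb1 was 3.53-fold higher after injury in tdTomato- cells (log2 difference 1.72, plate pairs 0.78 to 2.53) but differed by 0.31 in tdTomato+ cells, where plate pairs ran from -1.05 to 0.52. The difference of these injury effects was -1.41 (plate pairs -3.20 to -0.63), and it was not tested. Without plate 213 the injury differences in tdTomato- cells were 0.79 for Tgfb1 and 0.81 for Inhba, under 2-fold. Thinned cells carried a Tgfb1 count in 36.3% (27 to 46.4) of injured tdTomato- cells, 11% (5.62 to 18.8) of injured tdTomato+ cells and 7.61 to 8.66% of uninjured cells.

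Tgfb2 was at 77.9 CPM in uninjured tdTomato-, 62 in uninjured tdTomato+, 57.3 in injured tdTomato- and 19.9 CPM (18.4 to 21.5) in injured tdTomato+ cells. Its plates read 64.4 and 84.3, 64.5 and 60.3, 41.6 and 71.5, and 18.7 and 40.5 CPM in the same order, so only the injured tdTomato+ group lay below all others, with 40.5 CPM close to the lowest plate of injured tdTomato- cells. The injury difference of Tgfb2 was -1.59 in tdTomato+ cells (plate pairs -1.73 to -0.56) and -0.44 in tdTomato- cells (-1.0 to 0.15). Without plate 211 the difference in tdTomato+ cells was -0.60, under 2-fold.

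Tgfb3 was at 71.3 CPM in injured tdTomato- cells, 37.5 in uninjured tdTomato-, 24.3 in uninjured tdTomato+ and 22.3 CPM in injured tdTomato+ cells. Its plates overlapped widely, at 49.7 and 90.9, 62.2 and 25.8, 23.3 and 25, and 20.4 and 56 CPM in that order. The injury difference was 0.91 in tdTomato- cells (plate pairs -0.32 to 1.78) and -0.12 in tdTomato+ cells, and neither was past 2-fold. At 3 days the summed differences between the sorted populations were -1.74 for Tgfb1, -1.48 for Tgfb2 and -1.63 for Tgfb3. Tgfb1 was 2-fold lower on both plates (-1.70 and -2.90), whereas Tgfb2 and Tgfb3 were 2-fold lower on plate 211 (-1.11 and -1.25) and not on plate 215 (-0.80 and -0.69). For these 2 genes the difference of the sums exceeds that on both plates because plate 211 held 94.6% of the injured tdTomato+ counts but 47.6% of the injured tdTomato- counts. Under DESeq2 size factors Tgfb2 was at -0.97 and no longer past 2-fold.

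BMP-type ligands. Bmp4 and Bmp5 were the BMP-type genes with counts in 50% or more of the cells of both uninjured groups, and both were lower in the injured tdTomato+ group. Bmp4 was at 173 CPM (169 to 177) in uninjured tdTomato+, 108.2 in uninjured tdTomato-, 88 in injured tdTomato- and 69.6 CPM (66.7 to 72.6) in injured tdTomato+ cells. Its plates read 135.97 and 199.5, 141.96 and 92.2, 86.9 and 89, and 66.5 and 122.8 CPM in the same order, so the groups overlapped except that both uninjured tdTomato+ plates were above all injured plates. Bmp4 was 2.49-fold lower after injury in tdTomato+ cells (log2 difference -1.30, plate pairs -1.57 to -0.15), and the difference was -0.49 without plate 211 and -0.96 without plate 213. Bmp5 was at 120.997 CPM in uninjured tdTomato+, 96.7 in uninjured tdTomato-, 61.3 in injured tdTomato- and 49 CPM in injured tdTomato+ cells. All 4 uninjured plates (83.7 to 126.6 CPM) lay above all 4 injured plates (34 to 70.6 CPM). Bmp5 was 2.47-fold lower after injury in tdTomato+ cells (-1.29, plate pairs -1.87 to -1.21), with -0.65 in tdTomato- cells. The share of thinned cells with a Bmp5 count was nevertheless close before and after injury, at 53.5% (44.5 to 62.4) and 47% (36.9 to 57.2) of tdTomato+ cells.

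Bmp7 was the only ligand past 2-fold between the sorted populations in both conditions. It stood at 83.8 CPM (80.6 to 87) in injured tdTomato+, 50.1 in uninjured tdTomato+, 21.1 in injured tdTomato- and 16.1 CPM in uninjured tdTomato- cells. Its plates read 77.7 and 191, 39.4 and 57.7, 8.20 and 32.9, and 8.45 and 19.7 CPM, so every tdTomato+ plate was above every tdTomato- plate. The difference between populations was 1.58 in uninjured cord (plates 2.10 and 1.5) and 1.94 at 3 days (3.10 and 2.50, above the sum because of the unequal plates). After injury Bmp7 was 1.67-fold higher in tdTomato+ cells (0.73, plate pairs 0.42 to 2.25), short of 2-fold on the CPM scale and past it under TMM scaling (1.40) and DESeq2 size factors (1.53). The share of thinned tdTomato+ cells with a Bmp7 count was 13.4% (8.0 to 20.6) uninjured and 48% (37.9 to 58.2) at 3 days, a wider gap than in the summed level.

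Bmp6 and Gdf10 were low. Bmp6 lay between 10.4 and 14.7 CPM in all 4 groups, with plates from 7.75 to 21 CPM, and no contrast was past 2-fold. Counts were found in 50% of injured tdTomato+ cells and in 9.43 to 22.3% of the other groups at full depth, but in 14% (7.87 to 22.4) and 4.35 to 15.7% of thinned cells, so no order was read from these shares. Gdf10, which encodes a secreted ligand also known as BMP3B, was at 13.6 CPM (14 cells, 13.6%) in injured tdTomato-, 7.0 CPM (8 cells, 6.56%) in injured tdTomato+, 3.57 CPM (4 cells, 2.92%) in uninjured tdTomato+ and 2.31 CPM (2 cells, 1.89%) in uninjured tdTomato- cells. It was past 2-fold after injury in tdTomato- cells (2.14, plate pairs 1.56 to 3.86). A single cell carried 31.6 to 98.4% of the Gdf10 counts of each group, so this difference rests on 14 cells against 2.

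**Figure D3:**
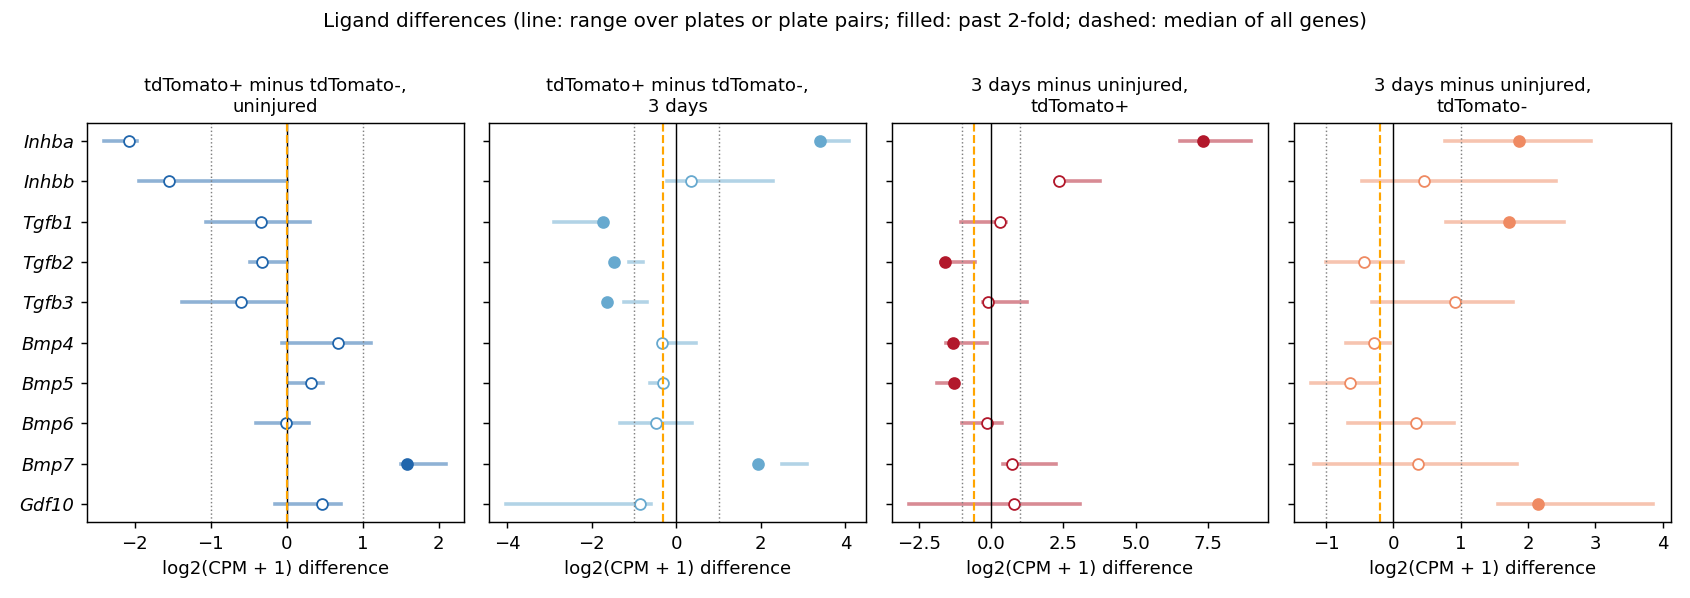
Differences of log2(CPM + 1) (x axis, separate in each panel) for the 10 ligands in the 4 contrasts, with the range over plates or plate pairs as a line, filled points past 2-fold, dotted lines at 2-fold and the median of all genes at 10 CPM or more as a dashed line. Inhba stands at 7.33 in the injury contrast of tdTomato+ cells, where the all-gene median is -0.59, and Bmp7 at 1.58 and 1.94 in the contrasts between sorted populations.

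Counted together, 1 ligand (Bmp7) was past 2-fold higher and 0 lower in uninjured tdTomato+ against tdTomato- cells, of 6 at 10 CPM or more, where 4.31% of 11198 genes were higher and 3.61% lower. At 3 days, of 9 ligands at 10 CPM or more, 2 (Inhba and Bmp7) were higher in tdTomato+ cells and 3 (Tgfb1, Tgfb2 and Tgfb3) lower, against 4.31% and 17.9% of 10631 genes. After injury in tdTomato+ cells 1 of 7 (Inhba) was higher and 3 of 7 (Tgfb2, Bmp4 and Bmp5) lower, against 10.8% and 34.3% of 11429 genes. The lower ligands there are a share near that background, and the median over all genes was itself -0.59 on the CPM scale against 0.13 under TMM scaling. Under TMM none of the 3 was past 2-fold (-0.94, -0.63 and -0.62), and Bmp7 joined Inhba among the higher ligands. After injury in tdTomato- cells 3 of 9 (Inhba, Tgfb1 and Gdf10) were higher and 0 lower, against 9.52% and 17% of 11434 genes. Ligands at 10 CPM or more passed partly through the group in which they were high, so these counts are descriptions of the 10 genes.

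Markers of several cell types moved with these differences, and their part in them was not tested. From uninjured to injured tdTomato+ cells the 5 endothelial markers summed to 3635 and 345 CPM, the 9 pericyte markers to 11378 and 797 CPM, the 8 perivascular fibroblast markers to 3619.5 and 19718 CPM and the 6 cycling markers to 8.33 and 1167 CPM. In tdTomato- cells the pericyte sums were 12552 and 11536 CPM, the perivascular fibroblast sums 1867 and 8425 CPM and the cycling sums 8.52 and 626 CPM. Leaving out every cell with Pecam1 above the limit used for the filter, a choice made after seeing the data, kept 46 and 40 uninjured and 120 and 80 injured cells (tdTomato+ and tdTomato-) and brought the summed endothelial markers to 180.3 to 584 CPM. The mix of the other markers differed too, with perivascular fibroblast sums of 11315 (tdTomato+) and 6109.7 CPM (tdTomato-) and pericyte sums of 5292 and 7872 CPM in the uninjured cells left. Inhba then differed by 7.0 after injury in tdTomato+ cells and by 3.06 between populations at 3 days, both still past 2-fold, and by 0.52 after injury in tdTomato- cells, no longer past it. Tgfb1 differed by 0.80 after injury in tdTomato- cells, also no longer past 2-fold. Tgfb2 had the other sign, 0.22, after injury in tdTomato+ cells, with an uninjured level of 16.6 CPM in place of 62. Bmp4 and Bmp5 were still past 2-fold lower, at -1.95 and -2.15, and Bmp6 was past 2-fold lower at -1.70. Bmp7 was then at 164 CPM before and 85.7 CPM after injury in tdTomato+ cells, the other way from the full set of cells. In these sums fewer cells of a type and less RNA per cell cannot be told apart.

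To place the ligands in cell types, cells were clustered on 2000 variable genes with all ligand and pathway genes kept out, which gave 6 clusters. Cluster 4 (72 cells) had all 8 perivascular fibroblast markers raised and is called perivascular fibroblast-like. Markers were scored over the pooled cells of a cluster, so its tdTomato+ and tdTomato- cells were not shown to be the same cell type. In its own comparison of uninjured and injured cells, the paper excluded Slc1a3+Pdgfra+ fibroblasts of the tdTomato- sort as nonrecombined GLAST+ cells. Cluster 5 (48 cells, 47 of them injured tdTomato-) had 7 of 9 pericyte markers raised, with 4 of 7 stromal fibroblast markers (Postn, Tnc, Itga5 and Col8a1) and 2 of 6 smooth muscle markers, and is called pericyte-like. Cluster 6 (18 cells, 14 of them uninjured tdTomato-) had 5 of 6 smooth muscle markers raised and is called vSMC-like. Cluster 1 (99 injured tdTomato+, 18 injured tdTomato- and 21 uninjured cells) had all 6 cycling markers, 5 of 8 perivascular and 4 of 7 stromal fibroblast markers raised. It also had 2 of 6 smooth muscle markers raised (Acta2 and Tagln) and stays unnamed. Clusters 2 and 3 (60 and 36 uninjured tdTomato+, 50 and 24 uninjured tdTomato- and 6 and 16 injured cells) had 8 of 9 pericyte markers and all 5 endothelial markers raised, the latter summing to 5358 and 4687 CPM against 360.5 CPM or less in the other clusters, and stay unnamed. Their leading genes by fold included Slc38a5 and Slc1a1 (cluster 2) and Gkn3, Bmx and Sema3g (cluster 3). The 21 uninjured cells of cluster 1 were shallow, at a median of 3991 (tdTomato+) and 1923 (tdTomato-) counts, and are not compared.

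Inhba was concentrated in the injured cells of clusters 1 and 4. In cluster 1 it stood at 488 CPM (479 to 496) in 99 tdTomato+ cells, 468 and 824 CPM on plates 211 and 215, against 61.8 CPM (55.1 to 69.1) in 18 tdTomato- cells, 77.3 and 48.1 CPM on the same plates. Cluster 1 supplied 97.9% of the Inhba counts of the injured tdTomato+ group and held 83.1% of its total counts. In the perivascular fibroblast-like cluster 4 the order was the other way, with 140.99 CPM (130.6 to 151.999) in 18 injured tdTomato- cells, 57.2 CPM (50.7 to 64.4) in 19 injured tdTomato+ cells, 21.9 CPM in 9 uninjured tdTomato- cells and 2.15 CPM in 26 uninjured tdTomato+ cells. Without the top cell of each these levels were 99.3, 37.6, 5.09 and 0 CPM. In the 47 injured tdTomato- cells of the pericyte-like cluster 5 no Inhba count was found, which allows up to 0.271 CPM, and the vSMC-like cluster 6 had 64.7 CPM in uninjured tdTomato- cells, 66% of it from 1 cell.

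**Figure D4:**
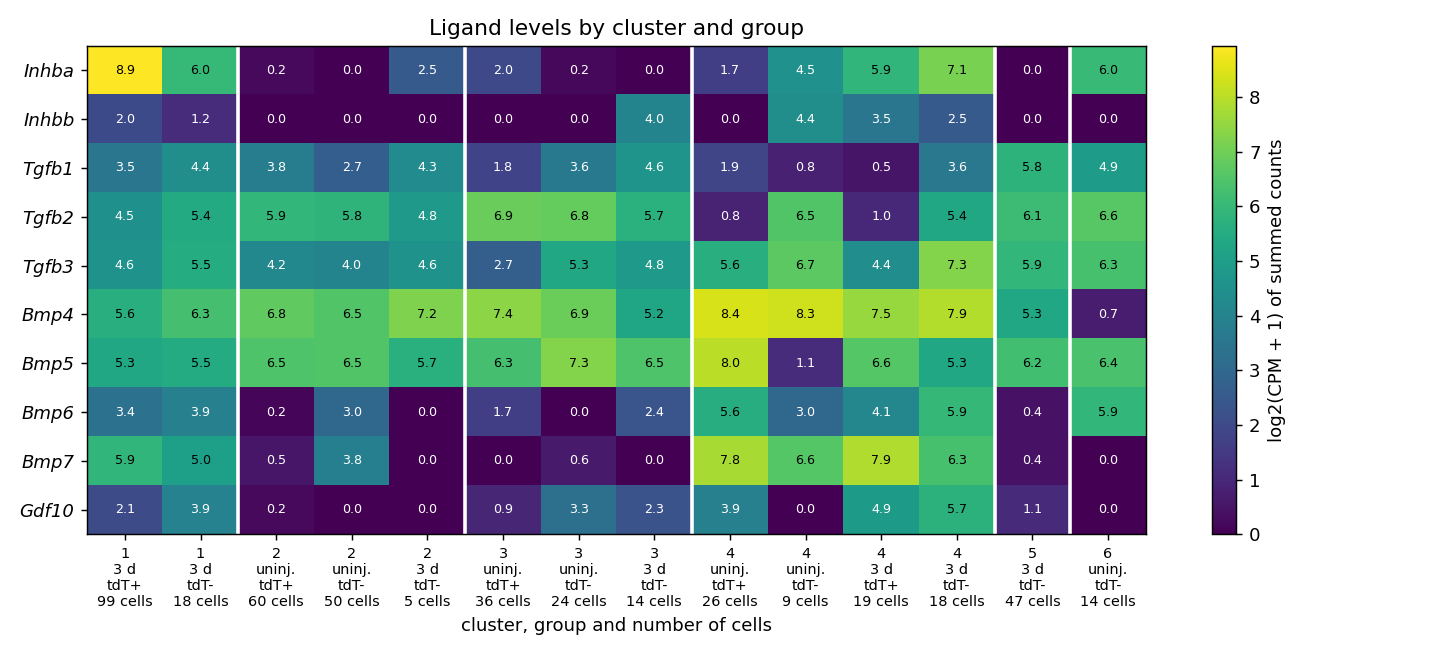
log2(CPM + 1) of summed counts for the 10 ligands (rows) in each combination of cluster and group with 5 cells or more (columns, with the number of cells), the shallow uninjured cells of cluster 1 left out. Inhba peaks in injured tdTomato+ cells of cluster 1 (488 CPM), Bmp4 and Bmp7 in cluster 4 and Tgfb1 in cluster 5, and Tgfb2 is at 1.04 CPM or less in the tdTomato+ cells of cluster 4.

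The TGF-beta genes had other distributions. Tgfb1 was at 54.1 CPM (49.9 to 58.6) in injured cells of the pericyte-like cluster 5, which supplied 70.6% of the Tgfb1 counts of the injured tdTomato- group, and at 20.3 CPM or less in cluster 1 and 11 CPM or less in cluster 4. Tgfb2 was at 116.9 and 111.5 CPM in uninjured tdTomato+ and tdTomato- cells of cluster 3, 59.6 and 54.5 CPM in those of cluster 2 and 69.3 CPM in cluster 5. In the perivascular fibroblast-like cluster 4 Tgfb2 split by population, with 0.793 CPM (2 of 26 cells) and 1.04 CPM (3 of 19 cells) in uninjured and injured tdTomato+ cells against 90.3 CPM (5 of 9 cells) and 40.2 CPM (13 of 18 cells) in tdTomato- cells. The tdTomato- levels without their top cell were 63.7 and 25.4 CPM, still above. By cluster and group Tgfb3 was highest in injured tdTomato- cells of cluster 4 at 153.4 CPM (142.6 to 165). In that cluster it was at 100.9 CPM in uninjured tdTomato- cells and 19.8 CPM (11.7 without its top cell) in injured tdTomato+ cells. Over all groups the vSMC-like cluster 6 had 104.8 CPM of Tgfb2 and 103.7 CPM of Tgfb3 (79.6 and 94.1 without the top cell). Cluster 4 had 20.8 and 72 CPM, and cluster 3 had 104.7 CPM of Tgfb2.

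The BMP-type genes were spread over the clusters in unlike ways. Bmp6 was at 38.3 CPM in cluster 4 and 41.9 CPM in the vSMC-like cluster over all groups, the latter at 22.5 CPM without its top cell. Bmp4 was at 332 CPM in uninjured tdTomato+, 309 in uninjured tdTomato-, 237 in injured tdTomato- and 186 CPM in injured tdTomato+ cells of cluster 4, and without their top cells these were 299, 195, 153.6 and 75.7 CPM. In uninjured tdTomato- cells of cluster 6 it was at 0.619 CPM, from 2 counts in 1 of 14 cells. Bmp7 was at 217 and 232 CPM in uninjured and injured tdTomato+ cells of cluster 4 and at 94.2 and 79 CPM in the tdTomato- cells (59 and 35.5 CPM without their top cells), so in this cluster the tdTomato+ level was about the same before and after injury. Cluster 4 supplied 99.6% of the Bmp7 counts of uninjured tdTomato+ cells but 42.7% of those at 3 days, when cluster 1 supplied 57.3% at 57.8 CPM. In clusters 2, 3, 5 and 6 Bmp7 reached at most 13.4 CPM in any group with 5 cells or more, and that value was 5.82 CPM without its top cell. Bmp5 in cluster 4 was at 255 CPM (21 of 26 cells) in uninjured tdTomato+ cells and at 1.17 CPM (2 of 9 cells) in uninjured tdTomato- cells, and at 94.7 and 38.8 CPM in the injured cells. In tdTomato- cells Bmp5 was thus higher outside cluster 4, at 154.2, 89 and 81.7 CPM in uninjured cells of clusters 3, 2 and 6 and, after injury, at 88.8 CPM in cluster 3 and 74.8 CPM in cluster 5. The value in cluster 6 was 47.9 CPM without its top cell. Gdf10 in cluster 4 came to 52.3 CPM in injured tdTomato- cells, from 7 of 18 cells, and to 31.4 CPM without its top cell.

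**Figure D5:**
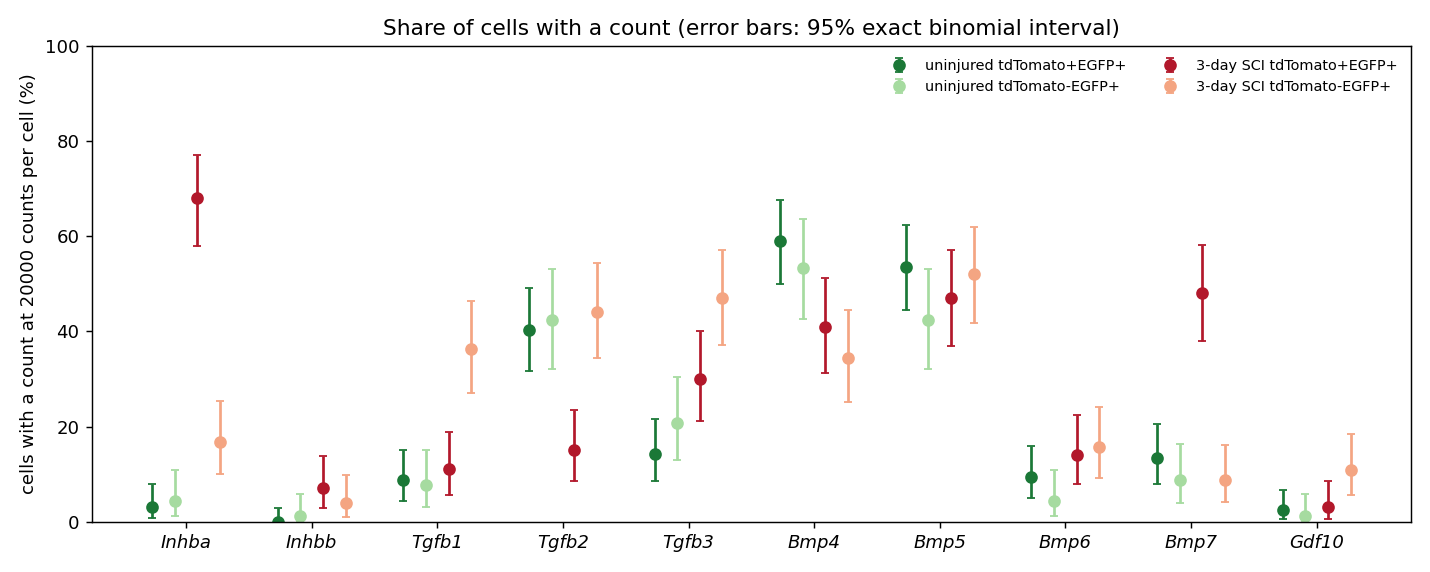
Share of cells with a count of each ligand (y axis, percent) after thinning each cell to 20000 counts, in the 4 groups, with exact 95% binomial intervals over cells. For Inhba and Bmp7 the injured tdTomato+ share (68% and 48%) lies above the intervals of the other groups, and for Tgfb1 the injured tdTomato- share (36.3%) does.

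Most thinned cells carried more than 1 of these ligands. Counts of 3 or more ligands were found in 63% (52.8 to 72.4) of injured tdTomato+ cells, 51% (40.9 to 61) of injured tdTomato- cells, 35.4% of uninjured tdTomato+ cells and 29.3% of uninjured tdTomato- cells. An activin subunit together with a BMP-type ligand was found in 61% (50.7 to 70.6) of injured tdTomato+ cells, against 14.7% (8.47 to 23.1) of injured tdTomato- cells and 2.36% and 4.35% of uninjured tdTomato+ and tdTomato- cells. Inhba itself was found in 68%, 16.7%, 3.15% and 4.35% of these groups, in the same order. Whether ligands pair beyond their single shares was not tested. A TGF-beta gene was found in 46% (36 to 56.3) of injured tdTomato+ cells and 78.4% (69.2 to 86) of injured tdTomato- cells, with 55.1% and 58.7% in uninjured cells. The share with any BMP-type ligand was close in all 4 groups, at 73.9 to 86%.

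Of 23 other ligands of the superfamily, 5 were at 10 CPM or more in each contrast. Nodal, a ligand best known from the early embryo that signals through activin receptors, was the one gene of these past 2-fold at 50 CPM or more. It was at 248 CPM in uninjured tdTomato-, 188 in uninjured tdTomato+, 29.2 in injured tdTomato- and 1.51 CPM in injured tdTomato+ cells. The injury differences were -6.23 (plate pairs -7.61 to -6.15) in tdTomato+ cells and -3.04 (-3.12 to -2.86) in tdTomato- cells. Clusters 2 and 3 held 63.2% and 35.1% of the Nodal counts of uninjured tdTomato+ cells, and Nodal was at 36.3 CPM in injured cells of cluster 5 and at 0.227 CPM or less in cluster 4. The endothelial markers moved with it, and with all Pecam1 cells left out the uninjured levels were 40.2 CPM (tdTomato+) and 127.5 CPM (tdTomato-).

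On the receiving side, of 10 receptors and co-receptors at 10 CPM or more, 6 were past 2-fold lower and 0 higher after injury in tdTomato+ cells, with a median of -1.36 against -0.59 over all genes, of which 34.3% were lower and 10.8% higher. In tdTomato- cells 3 of 11 were lower and 0 higher, with a median of -0.71 against -0.20 and all-gene shares of 17% lower and 9.52% higher. Acvrl1 and Eng, a type I receptor and a co-receptor for BMP9 and BMP10 known from endothelium, went from 417 to 44 CPM and from 996 to 279.8 CPM in tdTomato+ cells. The type II receptors Bmpr2 and Tgfbr2 went from 147.8 to 43.7 CPM and from 168 to 54 CPM. Acvr2a, a type II receptor for activins, was at 17 and 4.88 CPM, whereas Acvr1b, the type I receptor for activin, was at 8.83 and 11.5 CPM and Tgfbr1, the type I receptor for TGF-beta, at 31.3 and 37 CPM. The summed endothelial markers moved with the receptors. With all Pecam1 cells left out 5 of 10 receptors were lower in tdTomato+ cells (Acvr1, Tgfbr2, Acvr2a, Tgfbr3 and Eng), against 30.5% of all genes. In tdTomato- cells 0 were then lower and Tgfbr1 and Acvr1 were higher, against 15.5% and 13.3% of all genes. Under TMM 4 of 10 were lower in tdTomato+ cells, against 17.8% of all genes. Under DESeq2 size factors 2 were lower (Acvrl1 and Eng) and 2 higher (Tgfbr1 and Acvr1b), against 15.5% and 24.8% of all genes. Of 6 Smads at 10 CPM or more, Smad3 alone was past 2-fold lower in tdTomato+ cells (50.1 to 22.9 CPM), against 34.3% of all genes. Under TMM none was lower there. In tdTomato- cells 2 of 6 (Smad3 and Smad7) were past 2-fold lower, against 17% of all genes. Under TMM 1 of these (Smad3) still was, against 10.9% of all genes.

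Genes that store and release latent TGF-beta differed in both directions. After injury in tdTomato+ cells 2 of 8 were higher and 1 lower, against 10.8% and 34.3% of all genes, and in tdTomato- cells 3 of 7 were higher and 1 lower, against 9.52% and 17%. The number higher in tdTomato+ cells was 4 under TMM and 5 under DESeq2 size factors, against 21.6% and 24.8% of all genes. With all Pecam1 cells left out 1 of 8 was higher and 1 lower in tdTomato- cells, against 13.3% and 15.5% of all genes. In tdTomato+ cells 3 of 8 were then higher and 3 lower, against 11.4% and 30.5%. Ltbp2, a matrix protein related to the latent TGF-beta binding proteins, was at 129.99 against 5.70 CPM, Thbs1, which can activate latent TGF-beta, at 312 against 19.5 CPM, and Ltbp4 at 18.9 against 321 CPM. In tdTomato- cells Ltbp1 was lower (49.6 against 209 CPM) and Lrrc32, which tethers latent TGF-beta to the cell surface, higher (144.8 against 50.8 CPM). Lrrc32 no longer met the 2-fold rule there with all Pecam1 cells left out. Among secreted antagonists, Fstl3, which binds activins, was higher in tdTomato+ (51.3 against 12.9 CPM) and tdTomato- cells (64.1 against 16.9 CPM), and Nbl1, a BMP antagonist, was past 2-fold lower in tdTomato+ cells (46.1 against 239 CPM), with 235 against 243 CPM in tdTomato- cells. With all Pecam1 cells left out Fstl3 was not past 2-fold in tdTomato+ cells.

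Of 6 genes known to respond to TGF-beta and activin, 4 were past 2-fold higher after injury in tdTomato+ cells and 5 in tdTomato- cells, with medians of 1.98 and 2.02. Over all genes 10.8% and 9.52% were higher, with medians of -0.59 and -0.20. Under TMM and under DESeq2 size factors all 6 were higher in tdTomato+ cells, against 21.6% and 24.8% of all genes. With all Pecam1 cells left out these counts were 3 and 4, with medians of 0.64 and 1.58. Over all genes 11.4% and 13.3% were then higher, with medians of -0.60 and -0.18. Ccn2 was at 1019 against 188 CPM and at 796 against 128.98 CPM, in tdTomato+ and tdTomato- cells. Ccn2 was thus past 2-fold higher in both populations. Of 3 BMP response genes at 10 CPM or more, Id1 was lower in both populations (30.2 against 316 CPM and 105.7 against 354 CPM). Over all genes 34.3% and 17% were lower. No other BMP response gene was past 2-fold on the CPM scale. Under TMM and under DESeq2 size factors Id3 was past 2-fold higher in tdTomato+ cells, and Id1 was still lower in both populations. The genes of both lists also respond to many other signals, and the part of any ligand in their levels was not tested.

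The genes whose pattern was most like each ligand's were found by Pearson's r of log2(CPM + 1) over the 8 sums by group and plate, which share plates and sorts, and are given without a test. For Inhba these were Abitram (r = 0.990), Slc25a3 (0.981), Pa2g4 (0.980), Kpnb1 (0.979) and Tes (0.974). For Bmp7 they were Steap3 (0.982), Ms4a4d (0.974), Slc29a1, Epb41l3 and Epb41l4aos (0.956 to 0.965), and Ms4a4d had 35.4 and 99.2 CPM in uninjured and injured tdTomato+ cells against 1.86 and 2.22 CPM in tdTomato- cells. For Tgfb2 they included Mef2d, Mfsd6 and Mon1a (0.978 to 0.980), and they were for Bmp4 Txndc9, Zfp251, Iffo1, Orc5 and Sh3d19 (0.943 to 0.977), and for Bmp5 Gm47512, Cep350, Jmjd1c, Ttn and Lmo7 (0.985 to 0.992). For Tgfb3 the highest values were lower, at 0.927 to 0.946 (Blmh, Nptn, Procr, Alad and Fastk).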

How the data were processed

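Counts per gene and cell were deposited by the authors as 1 table. The submitters' processing notes name mm10, and the aligner, the annotation and whether counts are reads or molecules are not given in the sources used here. Per the labels each sample is 1 cell, and 1465 further columns matched no labelled sample and were not used. Cells needed 200 genes or more and under 20% mitochondrial counts. On a natural log scale after scaling each cell's total, cells with Gfap or Ptprc above 1, or with Pecam1 above 1 and above Pdgfrb, were left out. Plates were sorted through a singlet gate and no doublet caller was run.

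Counts were summed by group and by plate and scaled to CPM, with exact Poisson and Clopper-Pearson 95% intervals (SciPy 1.17.1). Differences are of log2(CPM + 1), which understates those of low genes. Cells were clustered in Seurat 5.3.0 (20 components, resolution 0.5) with 84 ligand and pathway genes kept out. TMM factors (edgeR 4.0.16) and size factors (DESeq2 1.42.0, both R 4.3.3) served as alternatives, besides other pseudocounts, cell filters, plates and resolutions. The scripts were tested on simulated data.

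The ligands and gene lists were chosen with earlier results of these data known. Named beside the 10 ligands were listed pathway genes past 2-fold at 50 CPM or more (up to 4 per list and contrast), receptors and Smads, and the 5 genes most like each abundant ligand. A few genes that this rule names are not reported here. Some low genes outside that rule (Fstl3 in part, Ltbp2 in part) were kept as list members. Exons overlap an annotated gene on the other strand (GENCODE vM21) for Tgfb2, Tgfb3, Bmp4, Bmp5 (1878 bases of Gm26903) and Bmp6, and whether counting used strand is not given in the sources used here, so their counts are uncertain to that extent.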

Additional observations from a re-analysis of the deposited data

Results flagged for a closer look

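Inhba was marked for a closer look because the sorted populations differed in opposite directions before and after injury on every plate. The log2 difference, tdTomato+ minus tdTomato-, was 3.39 at 3 days (plates 3.38 and 4.08) and -2.07 in uninjured cord (plates -2.40 and -1.97), and the difference of these was 5.46. The uninjured value rests on 7 cells with a count in each population. Bmp5 showed the same kind of contrast on a smaller scale, at -0.32 at 3 days (plates -0.49 and -0.62) against 0.32 in uninjured cord (plates 0.027 and 0.48), a difference of -0.64. Under TMM scaling the Bmp5 value at 3 days was 0.055, so its opposite direction was lost there. Neither difference was tested, since each group is 1 sample. Spike-in (ERCC) rows, which enter no comparison, held 0.0314% of the counts of the mapped cells.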

How the results depend on the processing

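No paired analysis was possible because the labels name no animal and no result comes from a test. The sorted populations shared plates, and their differences within each plate stand beside the summed ones in the report. The numbers of ligands past 2-fold between the populations at 3 days stayed within 1.5 times the reported numbers under all alternatives that could be computed. After injury in tdTomato+ cells the number higher was 2 in place of 1 with TMM scaling, DESeq2 size factors, the mean of cell CPM, cells of 1200 genes or fewer and no filter on low values, and also without plate 213, and it was 4 without plate 211. The number lower there was 0 in place of 3 with TMM scaling and with DESeq2 size factors, and 1 with cells of 1200 genes or fewer (Tgfb2) and without plate 211 (Bmp5). Over all genes 1826 of 11425 were higher and 3773 lower in that contrast without plate 211. In uninjured cord the number higher in tdTomato+ cells was 0 in place of 1 with cells of 1200 genes or fewer, 2 without plate 209 and 2 with all Pecam1 cells left out. The number lower there was 1 in place of 0 with no filter on low values (Inhba), 3 without plate 213 and 3 with all Pecam1 cells left out. All genes moved too. In uninjured cord 483 of 11198 were higher, 1042 of 11382 without plate 209 and 1747 of 11672 with all Pecam1 cells left out. The genes lower were 404 of 11198, 936 of 11152 without plate 213 and 1520 of 11672 with all Pecam1 cells left out. After injury in tdTomato- cells the number higher was 1 in place of 3 (Gdf10) without plate 213 and with all Pecam1 cells left out, and the number lower was 1 in place of 0 (Bmp5) without plate 213. Over all genes 1416 of 11325 were higher and 2228 lower in that contrast without plate 213. With all Pecam1 cells left out 1534 of 11559 were higher. The injury difference of Tgfb2 in tdTomato+ cells was reversed to 0.22 with all Pecam1 cells left out, a choice added after seeing the data. The causes were not tested. The limit of 1200 genes left 33 cells and none in the injured tdTomato- group, so contrasts with that group could not be computed. TMM moved the median of all genes after injury in tdTomato+ cells from -0.59 to 0.13 and DESeq2 size factors to 0.27, which gave 2471 higher and 2036 lower genes under TMM and 2848 and 1779 under DESeq2 against 1238 and 3921 on the CPM scale. At 3 days 974 genes were higher and 1243 lower between the populations under TMM against 458 and 1908, and after injury in tdTomato- cells 1617 and 1223 against 1089 and 1941. Each group is 1 sample, and depth limits the shares of cells with a count, as the thinned values of Bmp6 show.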
